A study of Mus musculus with 5 samples.

Results

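The comparison described here set 2 of the 5 libraries of this ATAC-seq series side by side, the γδ T thymocytes sorted for high CFP (SOX13hi) and those sorted for low to absent CFP (SOX13lo). ATAC-seq uses a transposase that cuts and tags open DNA, so a peak marks accessible chromatin. Both libraries were made from 40000 sorted CD24+ γδ T cells of the C57BL/6 strain. The genotype of both was TCRbeta KO.Sox13 ECFP KI/+, that is, the animals were TCRbeta knockouts, which lack the T cell receptor β chain, and carried ECFP knocked into 1 Sox13 allele, so CFP brightness reports activity of the Sox13 gene and no wild-type animals stand behind either library. Whether cells of several animals were pooled is not stated in the labels. Members were the autosomal peaks of these lists, 53009 of 54435 deposited peaks in SOX13hi and 65744 of 67482 in SOX13lo. Each group holds 1 library, so every difference below is between libraries and none has a replicate check or a p-value. In the SOX13lo list each peak is named after SOX13hi. The sample labels were followed, and "SOX13hi" and "SOX13lo" below mean the libraries so labelled. If the lists had been exchanged, every direction below would turn.

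γδ T cells carry an antigen receptor made of γ and δ chains. CD24 marks the immature stage in the thymus, where some γδ cells are already set up to make IL-17 and others to make interferon-γ. SOX13 belongs to the HMG-box family of transcription factors, as do SOX4, TCF1 (gene Tcf7) and LEF1, and SOX13 and SOX4 are known factors of the IL-17-producing γδ lineage.

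Most of the difference between the lists lay among low-scoring peaks, and few of the listed loci differed by 2-fold. Lef1 had fewer regions in SOX13hi. Its interval and that of Tnfrsf1b, also with fewer, were the 2 of 60 that excluded equality. The 60 were not adjusted for their number. The intervals of Tcf7, with fewer, and Ccr9, with more, included equality. For orientation, the promoters of Lef1 and Ccr9, the loci with the most regions among those at least 2-fold lower and with the largest excess in SOX13hi, are shown from RefSeq on GRCm38.p6. They were taken by gene symbol, 5′ to 3′ on the gene's strand. Deposited peaks are on mm9 and were not placed on these letters.
Lef1 promoter, plus strand, chr3:131110047-131110346 (GRCm38.p6): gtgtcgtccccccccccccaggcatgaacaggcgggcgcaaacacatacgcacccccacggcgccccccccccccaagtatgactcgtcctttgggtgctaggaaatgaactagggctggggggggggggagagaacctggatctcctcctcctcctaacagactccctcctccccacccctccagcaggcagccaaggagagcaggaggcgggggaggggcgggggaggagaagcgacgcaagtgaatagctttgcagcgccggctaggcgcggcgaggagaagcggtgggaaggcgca
Ccr9 promoter, plus strand, chr9:123766961-123767260 (GRCm38.p6): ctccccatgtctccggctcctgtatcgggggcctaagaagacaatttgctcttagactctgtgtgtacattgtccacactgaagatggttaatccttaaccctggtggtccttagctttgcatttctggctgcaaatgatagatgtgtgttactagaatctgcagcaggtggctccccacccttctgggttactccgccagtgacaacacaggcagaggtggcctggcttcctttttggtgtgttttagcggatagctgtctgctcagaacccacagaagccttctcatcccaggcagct
Capitals would mark the TCF/LEF core ATCAAAG or the SOX core AACAAT, searched on both strands, and neither sequence has a match. Of 32851 RefSeq promoters of the same 300 bases, 3.73% hold ATCAAAG and 10.7% hold AACAAT. No match says only that these letters are not in this window.

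Accessible sites with high scores were common to both fractions, and the lists parted among low-scoring sites. Peaks were ranked by the deposited score within each list and divided into deciles. In the highest decile, 93.6% (95% interval 92.9 to 94.2) of 5300 SOX13hi peaks overlapped a SOX13lo peak by 1 bp or more, and 95.03% (94.5 to 95.5) of 6574 SOX13lo peaks overlapped a SOX13hi peak. The fifth decile gave 65.0% in SOX13hi and 42.2% in SOX13lo. In the lowest decile the shares were 34.9% (33.6 to 36.2) and 13.6% (12.8 to 14.4). The intervals are exact Clopper-Pearson intervals and cover counting error only. Over whole lists, 62.7% of SOX13hi and 46.4% of SOX13lo peaks were shared.

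**Figure D1:**
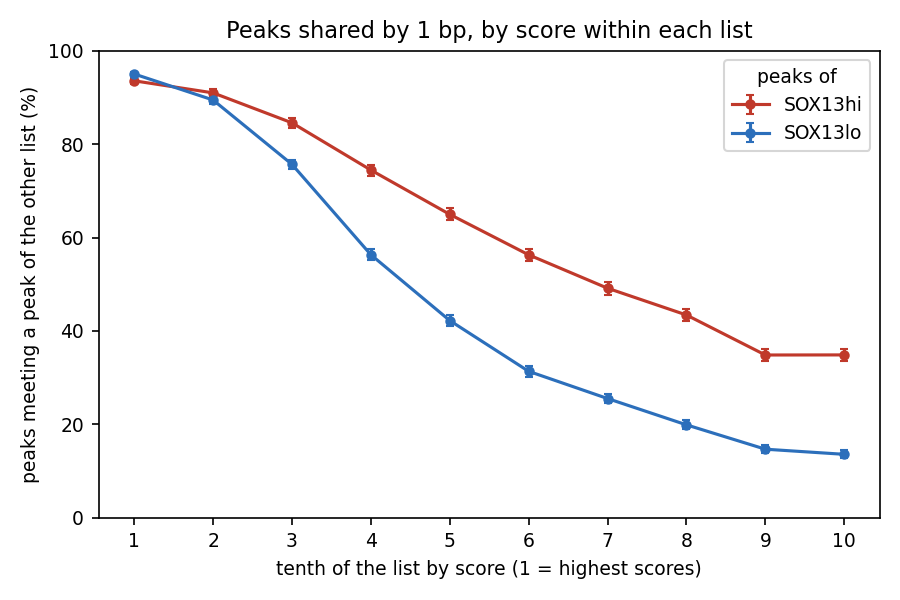
Share of peaks with an overlapping peak in the other library (%), by decile of score rank, with exact 95% intervals. Both libraries are near the top in the highest decile (93.6% and 95.03%), and SOX13lo falls to 13.6% and SOX13hi to 34.9% in the lowest.

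The SOX13lo list is longer, so the same number of highest-scoring peaks was also taken from each. With 1000 peaks each, 70.5% of SOX13hi and 70.2% of SOX13lo peaks met one another. With 10000 peaks the shares were 74.0% and 71.4%, and with 50000 peaks 60.8% and 55.1%. At the full length of the shorter list, 53009 peaks, they were 59.99% and 54.1%. The gap between the shares was 16.3 percentage points with all peaks and 5.87 with equal numbers. Against the whole other list, 94.3% of the 1000 highest SOX13hi peaks and 95% of the 1000 highest SOX13lo peaks had a partner.

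Most peaks without a partner lay next to one. Of the SOX13hi peaks that no SOX13lo peak overlapped, 55.5% had a SOX13lo peak within 200 bp and a further 17.4% within 1 kb. For unpartnered SOX13lo peaks these figures were 41.4% and 24.2%. Only 3.54% of all SOX13hi peaks and 6.47% of all SOX13lo peaks were more than 20 kb from any peak of the other list. Peaks 28 to 30 bp wide made up 45.4% of SOX13hi and 43.6% of SOX13lo peaks. Among them 45.9% and 26.1% were shared, against 93.0% and 88.4% of peaks over 150 bp. The overlap of 1 bp thus counts many adjoining short peaks as different sites. Across the 19 autosomes the ratio of SOX13lo to SOX13hi peaks ran from 1.16 to 1.34, and the shared part of SOX13hi peaks from 60.9% to 64.6%.

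**Figure D2:**
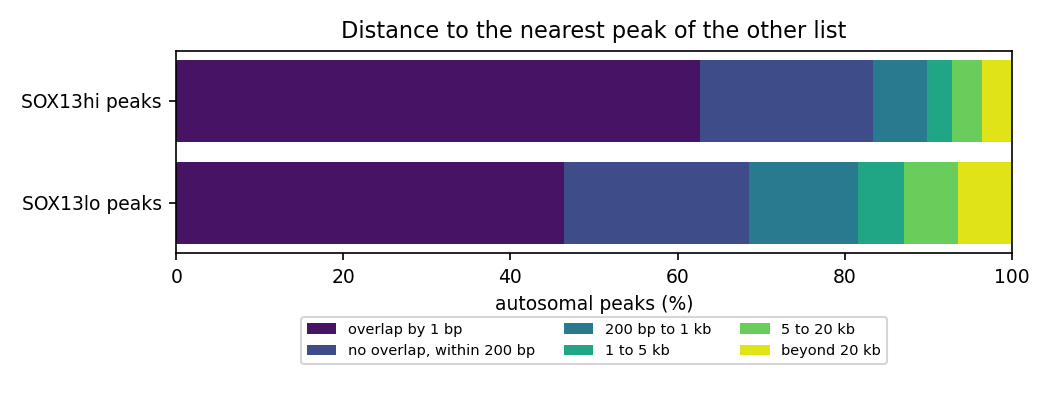
Autosomal peaks of each list (%) by distance to the nearest peak of the other list. The overlapping part is 62.7% in SOX13hi and 46.4% in SOX13lo, and peaks beyond 20 kb are 3.54% and 6.47%.

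To compare loci, peaks of both lists that overlapped by at least 1 bp were merged into 83816 regions. SOX13hi held 48566 and SOX13lo 64053 of them, with 28803 in both. Regions present in SOX13hi alone were 23.6% of all and those in SOX13lo alone 42.1%. Regions were then counted at 87 loci, each a gene with 20 kb on either side, placed by mm9 position. In a bulk library, fewer cells with an open site and a less open site in each cell cannot be told apart. The scaled ratio below is the number of regions in SOX13hi over that in SOX13lo after SOX13hi was multiplied by 1.32, which equalizes the totals. A locus was called at a 2-fold difference when both libraries together had at least 10 regions, which 60 loci met. The interval on a ratio is an exact conditional 95% interval from counting error alone, which treats neighbouring regions as independent.

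Of these 60 loci, 1 (1.67%) was at least 2-fold higher in SOX13hi and 7 (11.7%) in SOX13lo. The background, all autosomal 100 kb windows with at least 10 regions, was 3.04% and 5.90% of 4579 windows. With 1 locus, the share higher in SOX13hi cannot be told apart from the background. The share higher in SOX13lo rests on 7 loci, and its difference from the background was not tested. The loci were also chosen with earlier results of these data known. Ccr9 was the locus higher in SOX13hi. Sox13, Tcf7, Lef1, Eomes, Nt5e, S1pr1 and Cd5 were the 7 higher in SOX13lo. With equal numbers of highest-scoring peaks, not all of the 60 loci still had 10 regions. The counts were then 2 (Ccr9 and Zbtb16) and 3 (Lef1, Eomes and S1pr1), against 3.63% and 4.47% of windows. Sox13, with 1 and 5 regions, and Tcf7, with 2 and 7, fell under 10 regions and could not be called. Nt5e was within 2-fold. Cd5, with 3 regions in each library, then lost its direction. Of the 60 intervals, which were not adjusted for their number, 2 lay below 1 (Lef1 and Tnfrsf1b) and 0 above. The median scaled ratio was 0.96 over the loci and 0.99 over the windows.

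**Figure D3:**
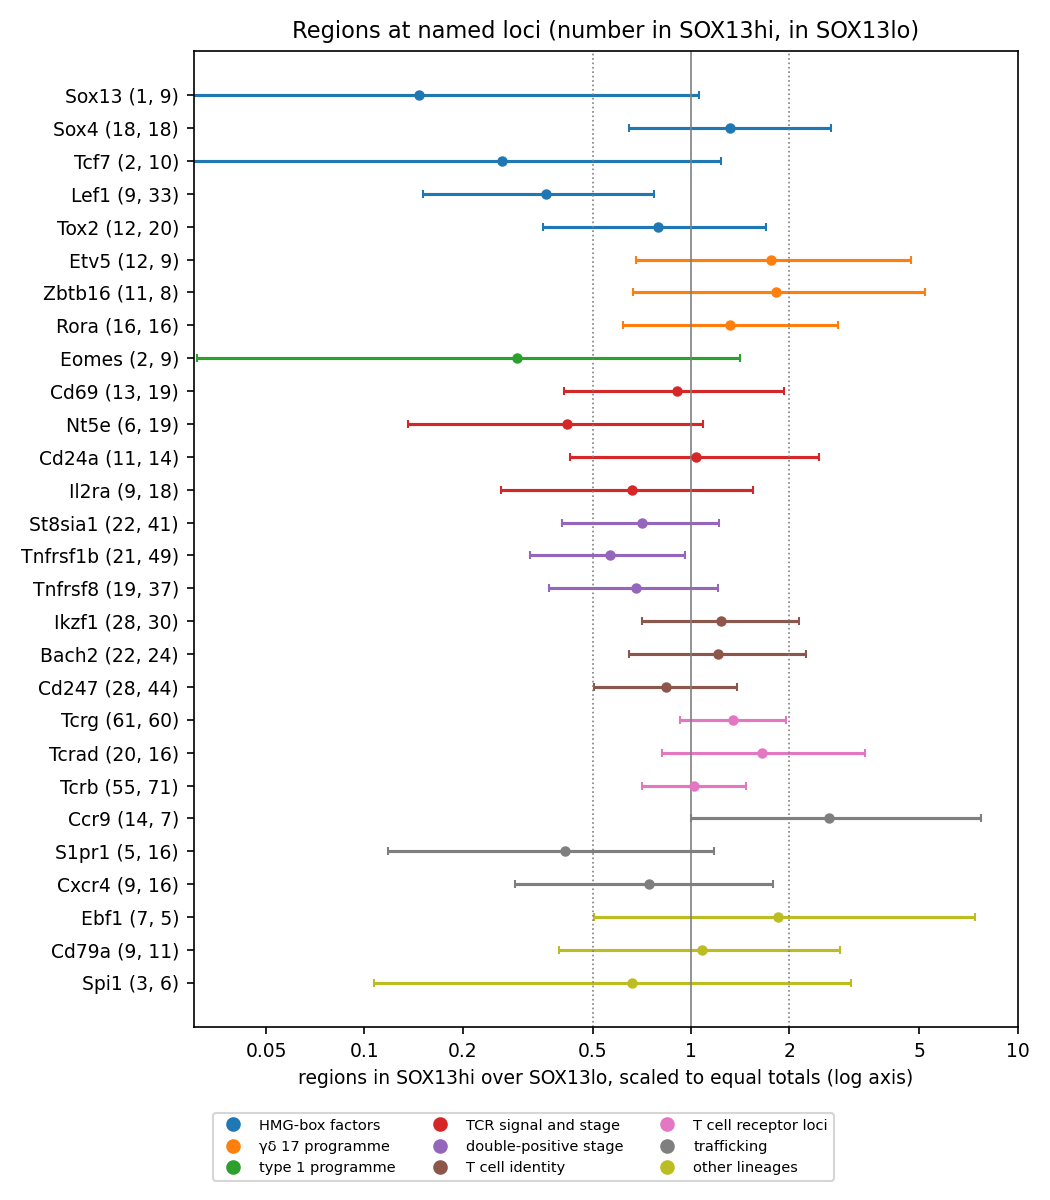
Regions in SOX13hi over SOX13lo after scaling to equal totals (log axis) at the named loci, with exact 95% intervals from counting error, some running past the axis; numbers of regions stand beside each name, and loci with no region in a library are left out. Lef1 and Tnfrsf1b are the loci whose intervals stay below 1.

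The label of the cells was set against marker loci first. Loci of the T cell receptor complex had regions in both libraries, with 28 in SOX13hi and 44 in SOX13lo at Cd247, which encodes the ζ chain. The CD3 chain loci Cd3e, Cd3d and Cd3g, which lie side by side and share regions, had 7 to 9 and 10 to 12. Lck, the kinase that starts receptor signalling, had 9 regions in each library, and Lat, an adaptor gene, had 4 and 5. Gata3 and Bcl11b, factors of T cell commitment, had 12 and 20, and 11 and 14. The γ chain locus, here called Tcrg, had 61 and 60 regions. Of the other γδ markers, Blk had 9 and 7 and Maf had 7 and 10. Sox13 had 1 and 9, with fewer in the library labelled SOX13hi. Tcf7, also a listed T lineage marker, had 2 and 10. Loci of other lineages were not empty. The B cell loci Pax5, Ebf1 and Cd79a had 1, 7 and 9 regions in SOX13hi and 3, 5 and 11 in SOX13lo. For myeloid Spi1, Cebpa and Lyz2 the numbers were 3, 2 and 1 against 6, 5 and 1. Hba-a1, an α-globin gene, had 1 and 4 and Alb, the albumin gene of liver, 5 and 3. These windows include neighbouring genes, and the part of other cells in the differences below was not tested.

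The 5 HMG-box loci together held fewer regions in SOX13hi, although 1 of them, Sox4, did not. They had 102 distinct regions, 42 in SOX13hi and 90 in SOX13lo. Of the 102, 11.8% were in SOX13hi alone and 58.8% in SOX13lo alone, beside 23.6% and 42.1% of all regions. With equal numbers of peaks these shares were 15.3% and 50.6%, beside 29.1% and 33.4%. The locus of Lef1, a factor of early T cell development, led the group. The locus had 9 regions in SOX13hi (4.12 to 17.1 by an exact Poisson interval). SOX13lo had 33 (22.7 to 46.3), for a scaled ratio of 0.36 (0.15 to 0.77). All 9 SOX13hi regions were also in SOX13lo, which had 24 more. With equal numbers of peaks Lef1 had 9 and 25 regions.

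The Lef1 peaks show where the libraries parted. Both had high-scoring peaks in the cluster at the upstream end of the gene. The SOX13hi peak at chr3:130814963-130815238 (mm9) stood at the 94.2 percentile of its list and the SOX13lo peak at chr3:130815171-130815321 at the 96.4 percentile. Both also had a peak towards the other end of the gene, at chr3:130911550-130911637 in SOX13hi and chr3:130911253-130911841 in SOX13lo, at the 95.9 and 96.8 percentiles. At positions below the cluster, from 130808920 to 130814781, SOX13lo had peaks, not sorted by side of the gene start, and SOX13hi had none. The highest of these, chr3:130808920-130809133, reached the 76.2 percentile. Nearer the middle of the gene SOX13lo had a peak at chr3:130860412-130860619 at the 91.2 percentile. The nearest SOX13hi peak was 1.91 kb away. A SOX13lo peak at chr3:130856933-130857110, at the 72.9 percentile, was likewise unmatched in SOX13hi. The strongest Lef1 sites were thus present in both libraries, and the sites that SOX13hi lacked ranged from low scores to that intragenic site in the highest 10% of the SOX13lo list.

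Tcf7, which encodes TCF1, had 2 SOX13hi regions (0.242 to 7.22) against 10 of SOX13lo (4.80 to 18.4), a scaled ratio of 0.26 (0.03 to 1.24). That interval includes 1. With equal numbers of peaks the locus had 2 and 7 regions, and with 50 kb on each side the ratio of Tcf7 was 0.742. In the upper 50% of each list it was 0.521. All SOX13hi peaks there met SOX13lo peaks, among them chr11:52082072-52082167 and chr11:52088906-52089258. The latter stood at the 90.0 percentile of the SOX13hi list, and the highest SOX13lo peak it met stood at the 79.0 percentile. SOX13lo alone had peaks at chr11:52079183-52079215 (67.9 percentile) and at chr11:52113228-52113359 (78.4 percentile). In SOX13hi the Tcf7 signal thus lay at sites that SOX13lo also had.

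Sox13 itself, the gene whose reporter defined the sort, had 1 region in SOX13hi and 9 in SOX13lo, a scaled ratio of 0.15 (0.003 to 1.06). None of the 10 was in both libraries. Scores were low, with the single SOX13hi peak at chr1:135296832-135296860 at the 46.8 percentile and the highest SOX13lo peak, chr1:135296652-135296796, at the 65.4 percentile. These neighbours lie within 200 bp of one another and the overlap rule counts them apart. Peak number at Sox13 thus did not rise with the CFP label. The locus carries the ECFP knock-in on 1 allele, and reads from the inserted sequence were not analysed here. Sox4, required for IL-17-producing γδ cells, had 18 regions in each library. Tox2 had 12 and 20.

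Loci of the IL-17 programme leaned the other way, as did the T cell receptor loci. The 13 loci had 134 distinct regions, 84 in SOX13hi and 86 in SOX13lo before scaling, although the SOX13lo list is longer. Regions in SOX13hi alone were 35.8% and in SOX13lo alone 37.3%, beside 23.6% and 42.1% of all regions. With equal numbers of peaks the shares were 42.0% and 29.4%, beside 29.1% and 33.4%. T cell receptor loci then had 37.8% and 24.4%, other lineages 34.9% and 32.6%, and trafficking loci 36.25% and 42.5%. The lean was thus not particular to the IL-17 group. Of the 8 loci with at least 10 regions, 5 had a scaled ratio above 1 and 3 below, with a median of 1.32, and 0 passed 2-fold. A locus with the same number of regions in each library, such as Rora or Il23r, has a ratio of 1.32 by scaling alone. No interval of a single locus in this group excluded 1.

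Etv5, an ETS factor of γδ cells that make IL-17, had 12 regions in SOX13hi and 9 in SOX13lo. SOX13hi had neighbouring Etv5 peaks at chr16:22396148-22396263 and chr16:22396394-22396423 (83.0 and 84.8 percentiles), and the nearest SOX13lo peak was 7.94 kb from the former. The strongest peak, chr16:22439646-22440147 in SOX13hi, was shared. Blk, a Src-family kinase, had 9 and 7 regions, and Zbtb16, which encodes PLZF, had 11 and 8. With equal numbers Zbtb16 had 11 and 5, which passed 2-fold. Maf, which encodes the factor c-Maf, had 7 and 10, Rora had 16 and 16, and Il7r, the IL-7 receptor chain, had 6 and 8. Il23r, the IL-23 receptor chain, had 7 regions in each library. The cytokine gene Il17a had 2 regions, both shared, and its neighbour Il17f had 0 in each library. Ahr had 6 and 10 and Ccr6 had 0 and 1. Il1r1 and Il18r1 had 3 and 5 regions in SOX13hi and 4 in SOX13lo at each.

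Loci of the interferon-γ programme together had most of their regions in SOX13lo, mainly through Eomes and Ifng. Only 1 of the 5 loci, Eomes, had the 10 regions needed for a call. The 5 loci had 23 regions, 4 in SOX13hi and 20 in SOX13lo, of which 13.04% were in SOX13hi alone and 82.6% in SOX13lo alone, beside 23.6% and 42.1% of all regions. With equal numbers the group had 4 and 17, and the shares were 15% and 80%, beside 29.1% and 33.4%. Eomes, a T-box factor, had 2 regions (0.242 to 7.22) against 9 (4.12 to 17.1), a scaled ratio of 0.29 (0.03 to 1.42). In the upper 50% of each list the ratio of Eomes was 0.651, within 2-fold. Its highest SOX13lo peak, chr9:118398839-118398866, stood at the 87.9 percentile. A SOX13hi peak at chr9:118398928-118398956 lay within 100 bp of it without overlap, at the 58.6 percentile.

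Ifng, the interferon-γ gene, had 0 regions in SOX13hi, which allows up to 3.69 by the exact Poisson interval, and 8 in SOX13lo (3.45 to 15.8). With equal numbers Ifng had 0 and 6. The highest Ifng peak of SOX13lo, chr10:117898526-117898653, stood at the 71.1 percentile of its list, so these were sites of middle to low score. Il2rb, the β chain of the IL-2 and IL-15 receptors, had 0 and 2, and 1 of its SOX13lo peaks, chr15:78325617-78325644, reached the 83.4 percentile. Tbx21, which encodes T-bet, had 1 region in each, and the chemokine gene Xcl1 had 1 and 0.

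Among 12 loci of receptor signalling and maturation, Nt5e was past 2-fold and kept its direction, though not the 2-fold size, with equal numbers. It encodes CD73, a surface enzyme that appears on γδ thymocytes after receptor engagement. Nt5e had 6 regions (2.20 to 13.1) in SOX13hi against 19 (11.4 to 29.7), a scaled ratio of 0.42 (0.14 to 1.08), and 6 and 11 with equal numbers. In the upper 50% of each list the ratio of Nt5e was 0.744. A SOX13lo peak of 545 bp at chr9:88223975-88224519, at the 92.0 percentile, had its nearest SOX13hi peak 1.33 kb away. Peaks at the other end, chr9:88275119-88275168 in SOX13hi and chr9:88274965-88275125 in SOX13lo, were shared and stood at the 95.6 and 97.6 percentiles.

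The remaining loci of receptor signalling were closer. Cd69 had 13 and 19 regions, Il2ra had 9 and 18, and Cd24a, which encodes the CD24 used in both sorts, had 11 and 14. Egr2, a factor induced by receptor signals, had 12 and 9, and Nr4a1, another such gene, had 8 and 15. Cd5, a surface protein that tracks signal strength, had 3 and 8, with the equal-number values given above. Id2 and Id3, inhibitors of E proteins, had 6 and 11, and 2 and 5. The E protein genes Tcf3 and Tcf12 had 5 and 8, and 3 and 5. Cd44 had 12 and 11. Over the group 48.0% of 173 regions were in SOX13lo alone, and 36.6% with equal numbers, beside 42.1% and 33.4% of all regions.

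Loci listed for double-positive thymocytes, the stage of αβ T cells that carries CD4 and CD8, had more regions in SOX13lo as a group without passing 2-fold. That excess lay mainly at the loci named in this paragraph. The 18 loci had 286 regions, 140 in SOX13hi and 240 in SOX13lo, of which 16.1% were in SOX13hi alone and 51.0% in SOX13lo alone, beside 23.6% and 42.1% of all regions. With equal numbers the shares were 22.0% and 41.9%, beside 29.1% and 33.4%. Of 12 loci with at least 10 regions, 8 had a scaled ratio below 1, 4 above, and 0 were past 2-fold. Tnfrsf1b, the TNF receptor 2 gene, had 21 regions in SOX13hi and 49 in SOX13lo, a scaled ratio of 0.57 (0.32 to 0.96), and 21 and 42 with equal numbers. Its neighbour Tnfrsf8, which encodes CD30 and shares part of the window, had 19 and 37. St8sia1, a sialyltransferase gene, had 22 and 41, Arpp21 had 18 and 33, and B3gnt2, a glycosyltransferase gene, had 11 and 24. With lists limited to the 32167 highest-scoring peaks, Tnfrsf1b had 17 peaks in SOX13hi, 26 in SOX13lo and 12 in double-positive thymocytes. Tnfrsf8 had 13, 16 and 14, Arpp21 had 13, 16 and 15, B3gnt2 had 9, 10 and 9, and St8sia1 had 7, 15 and 22. Apart from St8sia1, none of these had more peaks in double-positive cells than in SOX13lo.

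The coreceptor and recombination genes of that stage had up to 9 regions in SOX13hi and up to 12 in SOX13lo. Cd8a and Cd8b1, adjoining genes of the CD8 chains, had 0 and 2 regions in SOX13hi and 1 and 4 in SOX13lo. Cd4 had 9 and 12. Rag1 and Rag2, which share regions and encode the recombinase, had 5 and 8, and 7 and 9. Dntt, which encodes the terminal transferase, had 8 and 7. Ptcra, the pre-T cell receptor α gene, had 5 and 6, and Themis had 6 and 8. Zbtb7b and Runx3, which set the CD4 and CD8 lineages, had 1 and 2, and 4 and 5. Endou had 3 and 5, Cd1d1 had 6 and 5, and Cd6 had 3 and 2. Among the loci of this paragraph with at least 10 regions, scaled ratios ran from 0.82 at Rag1 to 1.58 at Cd1d1.

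Other loci of T cell identity were close to the background. Of their 327 regions 25.4% were in SOX13hi alone and 45.6% in SOX13lo alone, beside 23.6% and 42.1% of all regions. With equal numbers the shares were 29.8% and 38.4%, beside 29.1% and 33.4%. None of 14 loci with at least 10 regions passed 2-fold. Ikzf1, which encodes Ikaros, had 28 and 30 regions, Bach2 had 22 and 24, and Runx1 had 10 and 18. Ets1 had 16 and 25, Satb1 had 13 and 22, and Myb had 8 in each. Notch1, the receptor that drives T cell commitment, had 5 in each, and its target Hes1 had 1 and 5. At the antigen receptor loci, Tcrg had a scaled ratio of 1.34 (0.92 to 1.95), with 37 regions in SOX13hi alone, 36 in SOX13lo alone and 24 in both. The window on the α and δ locus had 20 and 16. The β locus, in cells of TCRbeta KO animals, had 55 and 71, a scaled ratio of 1.02 (0.71 to 1.47). Of the 212 regions of these 3 loci, 30.7% were in SOX13hi alone and 35.8% in SOX13lo alone, beside 23.6% and 42.1% of all regions. With equal numbers the shares were 37.8% and 24.4%, beside 29.1% and 33.4%.

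Trafficking loci differed in opposite directions. Ccr9, the receptor for the thymic and gut chemokine CCL25, had 14 regions (7.65 to 23.5) in SOX13hi against 7 (2.81 to 14.4), a scaled ratio of 2.64 (0.996 to 7.72), and 14 and 4 with equal numbers. The ratio of Ccr9 was 1.45 when peaks within 150 bp were joined, 1.72 with 50 kb on each side and 1.3 in the upper 50% of each list. Only 1 Ccr9 region was in both. In SOX13hi a further peak at chr9:123666033-123666124 (87.1 percentile) and in SOX13lo one at chr9:123665821-123665981 (91.4 percentile) lay side by side without overlap. At chr9:123663636-123663773 in SOX13hi and chr9:123663591-123663750 in SOX13lo the lists shared a strong peak (94.4 and 92.5 percentiles). From 123676201 to 123692449 SOX13hi had peaks, up to the 66.1 percentile, and SOX13lo had none. SOX13lo in turn had a peak at chr9:123670144-123670213 (64.7 percentile) with no SOX13hi partner.

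S1pr1, the sphingosine phosphate receptor used to leave the thymus, had 5 regions (1.62 to 11.7) against 16 (9.15 to 26.0). The scaled ratio was 0.41 (0.12 to 1.18), with 5 and 14 regions with equal numbers. With 50 kb on each side the ratio of S1pr1 was 0.707, within 2-fold. The leading S1pr1 peak of SOX13lo, chr3:115417657-115418095, stood at the 95.3 percentile and met SOX13hi peaks of which the higher stood at the 82.1 percentile. SOX13lo peaks at chr3:115415814-115416020 (76.5 percentile) and chr3:115395426-115395481 (75.7 percentile) had no partner. Cxcr4, a chemokine receptor gene, had 9 and 16, Itgae had 9 and 7, and Ccr4 had 4 and 9. Klf2, a factor that controls S1pr1, had 4 in each, and Ccr7 had 1 and 2.

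**Figure D4:**
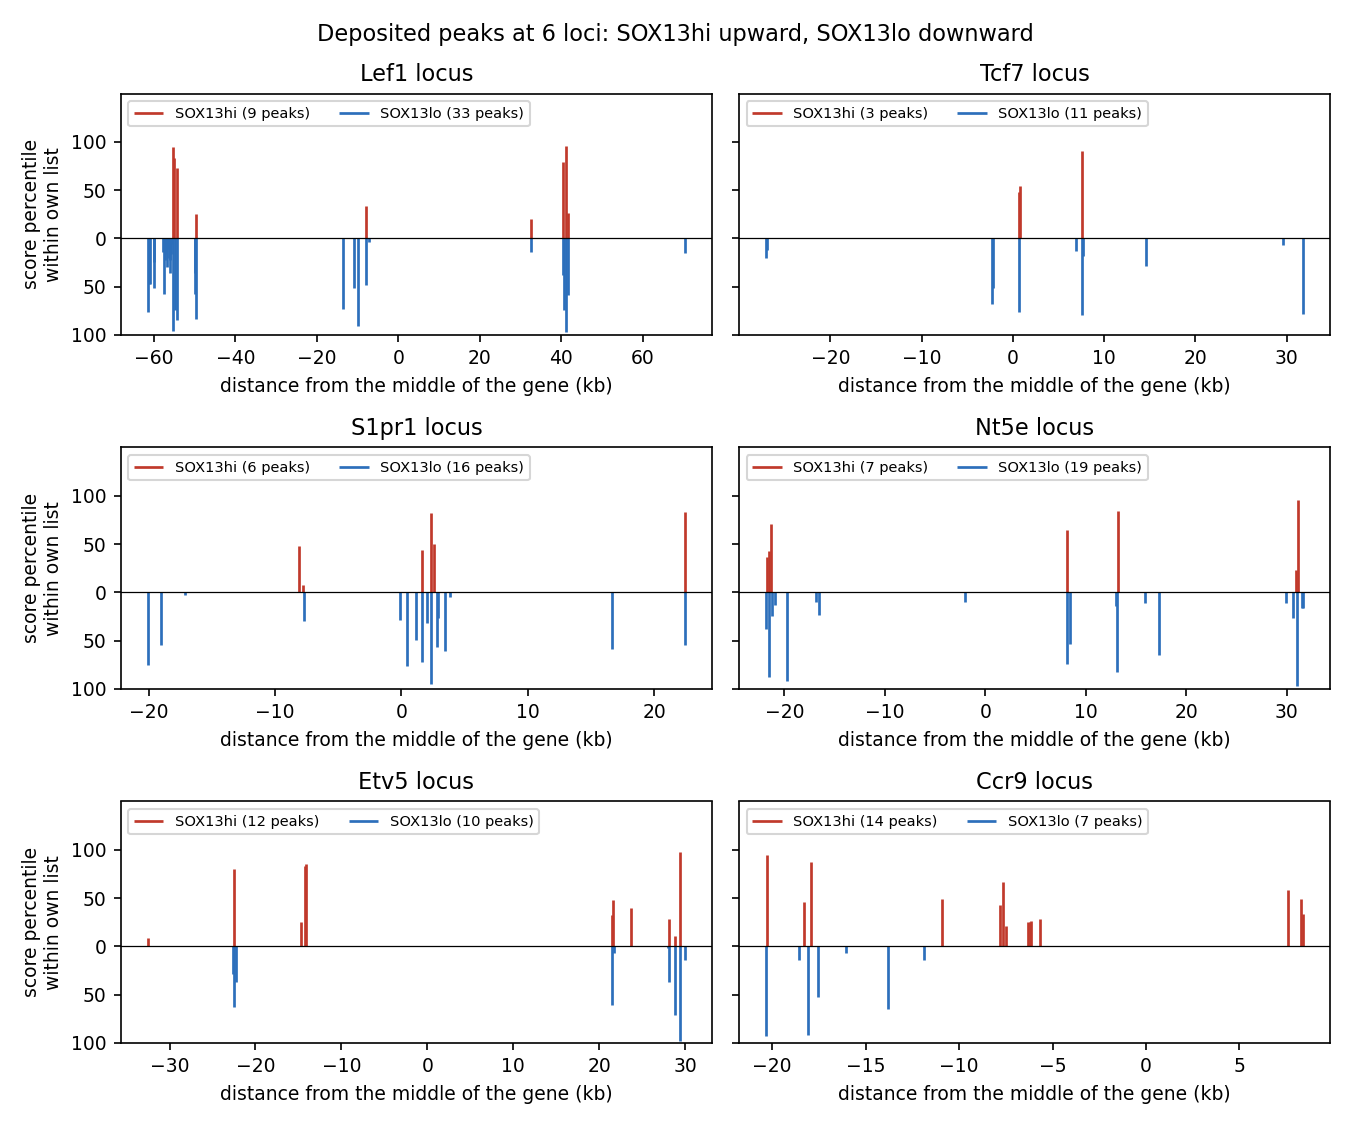
Deposited peaks at 6 loci by distance from the middle of the gene (kb) on the chromosome; line height is the score percentile within the peak's own list, SOX13hi upward and SOX13lo downward. Lef1 has 9 SOX13hi and 33 SOX13lo peaks, whereas Ccr9 has 14 and 7.

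The other libraries of the series were read at the called loci, with every list limited to the 32167 highest-scoring autosomal peaks, the length of the shortest. These libraries were the transgenic SOX13hi and SOX13lo fractions (TCRbeta KO.Sox13tg+.Sox13 ECFP KI/+) and double-positive (DP) thymocytes of wild-type animals. Lef1 then had 5 peaks in SOX13hi and 14 in SOX13lo, 8 in each transgenic fraction and 16 in DP, so the transgenic pair did not differ in number there. Tcf7 had 3 and 5, then 5 and 6 in the transgenic fractions and 13 in DP. Ccr9 had 8 and 4, then 2, 4 and 13, so the transgenic pair had the opposite direction. Sox13 had 1 in each non-transgenic library and in DP, and 12 and 13 in the transgenic fractions, whose animals carry a Sox13 transgene. Its promoter is not given in the labels. S1pr1 had 5 and 9, then 3, 5 and 1, and Nt5e had 5 and 7, then 4, 2 and 3, the latter again with the transgenic pair in the opposite direction. Cd5 had 2 in each of the 4 γδ libraries and 4 in DP. Eomes had 2 and 3, then 3, 4 and 3.

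Single sites were last compared without regard to loci. Among the highest 10% of SOX13hi peaks by score, 22 of 5300 (0.415%) had no SOX13lo peak within 1 kb, and 24 of 6574 (0.365%) such SOX13lo peaks had no SOX13hi peak within 1 kb. Strong sites unmatched over 1 kb were thus rare in either direction. The highest of these 46 peaks stood at the 95.3 percentile of its list. In the highest 5% only 1 SOX13hi and 0 SOX13lo peaks were unmatched, and in the highest 20% there were 135 and 216.

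The unmatched SOX13hi peak with the highest score lay at chr3:67240028-67240090, 5.67 kb from the nearest SOX13lo peak. It was followed by chr11:90374071-90374231 (94.57 kb) and chr7:121760309-121760487 (35.36 kb). The next were chr14:24207416-24207581, chr8:12957195-12957226 and chr11:44458420-44458792. The last of these lies in the window of Ebf1, a B cell factor gene, 27.66 kb from a SOX13lo peak, and stood at the 93.0 percentile. Ranks 7 to 10 were held by chr1:57657545-57658012, chr15:31406203-31406350, chr5:73590940-73591112 and chr1:146778597-146778980. Of the 22 sites, 1 lay in a listed locus.

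In SOX13lo the unmatched peak with the highest score was chr2:112350265-112350812, 8.74 kb from the nearest SOX13hi peak. Next came chr14:17005892-17005985 (69.71 kb) and chr4:144491574-144491745 (7.65 kb). The fourth, chr3:124862649-124863153, was 505 bp wide and 1429.3 kb from any SOX13hi peak. It was followed by chr7:36776022-36776461, chr7:71330257-71330378, chr10:116351127-116351155 and chr5:119798509-119798595. Ranks 9 and 10 were chr1:156887637-156887667 and chr6:101309802-101309829. Of the 24 sites, 2 lay in listed loci, those of Nt5e and Lef1 given above. In the highest 20%, further unmatched SOX13lo peaks lay at B3gnt2, Cd44, Gata3, Il2rb and Tnfrsf8, and unmatched SOX13hi peaks at Etv5.

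The unmatched sites were looked up in the other 3 libraries, a comparison chosen after its values were seen. All 22 SOX13hi sites had a transgenic SOX13hi peak within 1 kb (84.6 to 100%), whereas 3 had a transgenic SOX13lo peak and 9 a DP peak. Of the 24 SOX13lo sites, 11 had a transgenic SOX13hi peak, 6 a transgenic SOX13lo peak and 13 a DP peak. Of all the highest 10% of SOX13hi peaks, matched or not, 100% had a transgenic SOX13hi peak within 1 kb, 94.2% a transgenic SOX13lo peak and 97.0% a DP peak. For all the highest 10% of SOX13lo peaks these shares were 99.7%, 95.9% and 98.5%. In the highest 20%, 134 of 135 SOX13hi sites (99.3%, 95.9 to 99.98) and 107 of 216 SOX13lo sites (49.5%, 42.7 to 56.4) were found in transgenic SOX13hi. With the library looked up limited to its 32167 highest-scoring peaks these numbers were 129 (95.6%) and 55 (25.5%), beside 99.3% and 95.7% of all such peaks. Transgenic SOX13lo, the shortest list, held 24 of the 135 (17.8%) and 64 of the 216 (29.6%). DP held 41 (30.4%) and 122 (56.5%). With the DP list limited it held 28 and 73, beside 90.5% and 90.8% of all such peaks. Over all of the highest 20% of SOX13hi peaks the shares were 99.9% for transgenic SOX13hi, 89.3% for its SOX13lo counterpart and 95.1% for DP. For SOX13lo they were 98.4%, 89.1% and 96.4%. The share of unmatched SOX13hi sites in transgenic SOX13hi was thus near that of all such SOX13hi peaks, and in the other 2 libraries it was below that of all such peaks. For unmatched SOX13lo sites the shares were below those of all such SOX13lo peaks in all 3. The unmatched sites were chosen for absence from 1 library and lay almost all below the highest 5% by score. All such peaks include the strongest ones, so the comparison was not matched for score and cannot show a trait of these sites. None of these differences was tested.

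**Figure D5:**
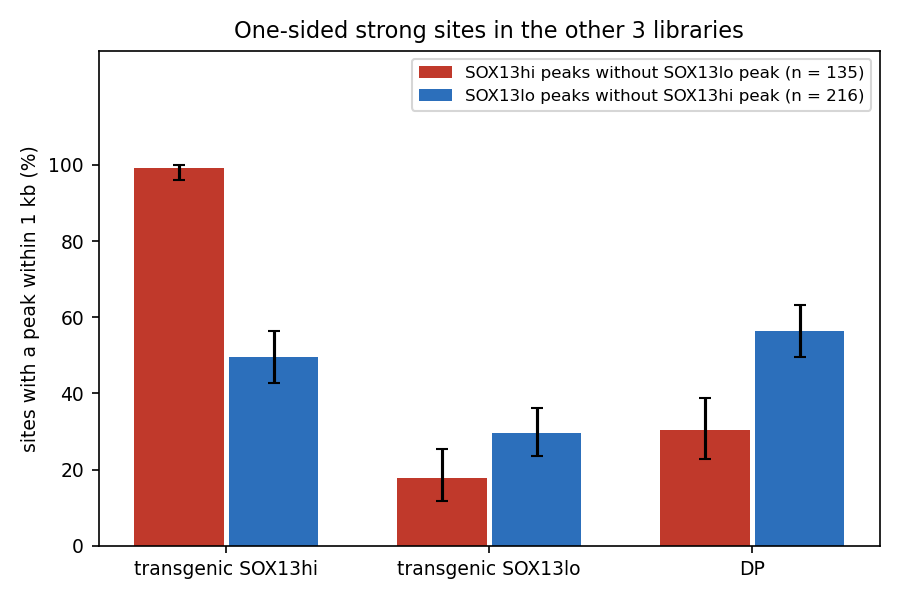
Unmatched sites of the highest 20% by score that had a peak within 1 kb in each further library (%), with exact 95% intervals from counting error. Of the unmatched SOX13hi sites 99.3% were found in transgenic SOX13hi and 17.8% in transgenic SOX13lo, beside 99.9% and 89.3% of all SOX13hi peaks in the highest 20%. Sites and all peaks were not matched for score.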

How the data were processed

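Each library's file, as the authors deposited it, lists peaks by position with a whole-number score and has no header. The build is mm9 per the submitters' processing notes. What the score measures, how reads were aligned and peaks called or filtered, and the depth were not given in the sources used here. Scores therefore served only for ranking inside 1 list.

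Autosomal peaks were compared by 1 bp overlap, with all peaks and with the 53009 highest-scoring of each list. Ties in score were broken in a seeded random order (of 5837 SOX13lo peaks with score 9, 3671 were kept). mm9 positions of the 87 loci were written from general knowledge to the nearest kb. They were checked against the RefSeq GRCm38.p6 table. Of 86 symbols found in it, 86 matched in chromosome and 82 in gene length within 10 kb. The spacing of strong peaks against start sites was also compared, and 4 planned loci (Kit, Cd28, Tox, Egr3) were left out as uncertain. Some further planned loci are not reported here. Windows overlap for neighbouring genes, which then share regions.

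The members, loci and tests were chosen with earlier results of these data known. Loci named in full were those past 2-fold with the direction kept with equal numbers, and the 3 with the most regions in each group. Sites named were the 10 highest-scoring unmatched ones in each direction. The functions for distance, reciprocal overlap and merging were tested on simulated lists of well-separated peaks, unlike the adjoining short peaks here. The functions for locus calls and windows were not run on those lists. No mm9 genome was used here, so peak sequences are not shown. Alternatives are in the closing section. Work was done in Python 3.11.15 (scipy 1.17.1, numpy 2.4.6, matplotlib 3.10.9, pandas 2.3.3).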

Additional observations from a re-analysis of the deposited data

How the results depend on the processing

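The shared part of SOX13hi and SOX13lo peaks was 59.99% and 54.1% when both lists were limited to the same number of top peaks, and 59.98% and 54.1% with another order of ties, an alternative chosen after seeing the data. It was 19.2% and 15.5% with a reciprocal overlap of 50%, 89.9% and 81.6% with any peak within 1 kb, and 73.5% and 55.9% in the upper 50% of each list. With all chromosomes it stayed within the interval of the autosomal value. The number of loci past 2-fold in favour of SOX13hi was 2 with equal numbers (2 with another order of ties), 0 with the gene body alone and 0 with 50 kb on each side. In favour of SOX13lo it was 3 with equal numbers (4 with another order of ties), 3 in the upper 50%, 3 with the gene body alone, 8 with 50 kb on each side and 6 with peaks within 150 bp joined. With peaks within 150 bp joined, the scaled ratio of Ccr9 was 1.45, under 2-fold, and that of Lef1 was 0.381. Ccr9 was 1.3 in the upper 50%, and with 50 kb flanks Ccr9 was 1.72, Tcf7 0.742 and S1pr1 0.707. Eomes and Nt5e were 0.651 and 0.744 in the upper 50%. The 7 loci named by call had been chosen for keeping their direction with equal numbers. None reversed under the other alternatives that gave a ratio, but these recount the same peaks and are no independent check. Unmatched strong SOX13hi peaks numbered 1 in the highest 5%, 135 in the highest 20% and 341 by 1 bp overlap. Unmatched SOX13lo peaks numbered 0, 216 and 327 under these settings. With lists of equal length they numbered 32 in SOX13hi and 13 in SOX13lo, so the balance between directions depended on list length. No paired analysis was possible because each group holds 1 library. The unknown depth limits every count of regions: a site missing from a list is not shown to be closed.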
